A study of Mus musculus with 15 samples.

Results

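Messenger RNAs of the constitutive proteasome were followed in bone marrow-derived dendritic cells (DC) before and after stimulation. Members were the genes whose single symbol in the array annotation ran from Psma to Psmd followed by a digit, leaving out the inducible subunits Psmb8, Psmb9 and Psmb10. The rule found 35 genes, on 45 probe sets, among 8251 genes with a probe set of a single symbol. Of these, 34 encode proteasome subunits or chaperones of proteasome assembly: 7 alpha ring genes (Psma1 to Psma7), 7 beta ring genes (Psmb1 to Psmb7), 6 ATPase genes (Psmc1 to Psmc6), 11 non-ATPase genes of the regulatory particle and 3 assembly chaperones. The other, Psmc3ip, encodes a protein of meiotic recombination that is no proteasome subunit. Its signal lay between 2.18 and 12.8 on the 15 arrays, it passed no test, and it is left out of every count below. Where a gene had several probe sets, the one with the highest mean over all arrays stood for it.

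Bone marrow of female NOD mice (non-obese diabetic, a model of type I diabetes) aged 6 to 8 weeks, was cultured for 4 days. GM DC were grown in GM-CSF at 1 ng/ml, and GM4 DC in GM-CSF and IL-4 at 1 ng/ml each. Cells were purified on metrizamide gradients of 16% for GM DC and 14.5% for GM4 DC, then stimulated with LPS at 10 µg/ml and IFN-γ at 50 ng/ml and harvested at 0, 6 and 20 h. GM DC gave 3, 2 and 2 arrays at these times, and GM4 DC gave 3, 3 and 2. In the title of the series GM4 DC are the therapeutic and GM DC the non therapeutic cells. The labels of 1 array, GM4 0 h replicate 1, give neither cytokine doses nor a gradient. The source names of the GM4 0 h arrays speak of exposure to LPS and IFN-γ although their titles give 0 h, and they were taken as unstimulated. Replicates are biological according to the series' design text, which also says that some RNA samples were not good.

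The proteasome degrades proteins tagged with ubiquitin. Its core particle is a barrel of outer alpha rings, which gate the entrance, and inner beta rings, of which Psmb5, Psmb6 and Psmb7 carry the proteolytic sites. The regulatory particle caps the barrel: a ring of ATPases unfolds the substrate, and non-ATPase subunits bind ubiquitin, remove it and hold the particle together. In dendritic cells the proteasome makes the peptides that MHC class I presents to T cells, and interferon-γ is known to induce Psmb8, Psmb9 and Psmb10, which take the places of Psmb5, Psmb6 and Psmb7 in newly built particles.

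The array signal is a brightness on a linear scale, and differences are given on the log2(signal + 16) scale with their standard error (SE). A difference was called when its limma p-value, adjusted by the Benjamini-Hochberg method over 12422 probe sets, was under 0.05. Levels of different probe sets cannot be set against each other, so genes are compared by their changes only. Of the 34 genes, 32 were above a signal of 16 on all arrays. Psmc4 (3.33 to 39.5) and Psmd2 (3.75 to 29.1) were dim. The arrays had like median signals (40.1 to 48.5), and replicates correlated at 0.966 to 0.988 over all probe sets. None of the 9 measured DC markers, among them Cd74 and H2-Aa, was under a signal of 16 on all arrays, and summed signals were 10179.6 to 24659. Markers of B cells (4 measured, 81.3 to 217) and of T and NK cells (5 measured, 38.9 to 238, with 2 under 16 on all arrays) were low, as were those of mast cells, basophils and eosinophils (5 measured, 26.6 to 87.2, with 3 under 16 on all arrays). The summed signal of 8 monocyte and macrophage markers was 12549.6 to 15197 in GM DC and 4255 to 4689 in GM4 DC at 0 h, and 9 neutrophil markers summed to 8898 to 9179 and 9365 to 14363. In bulk RNA, fewer cells of a type and less RNA per cell cannot be told apart.

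**Figure D1:**
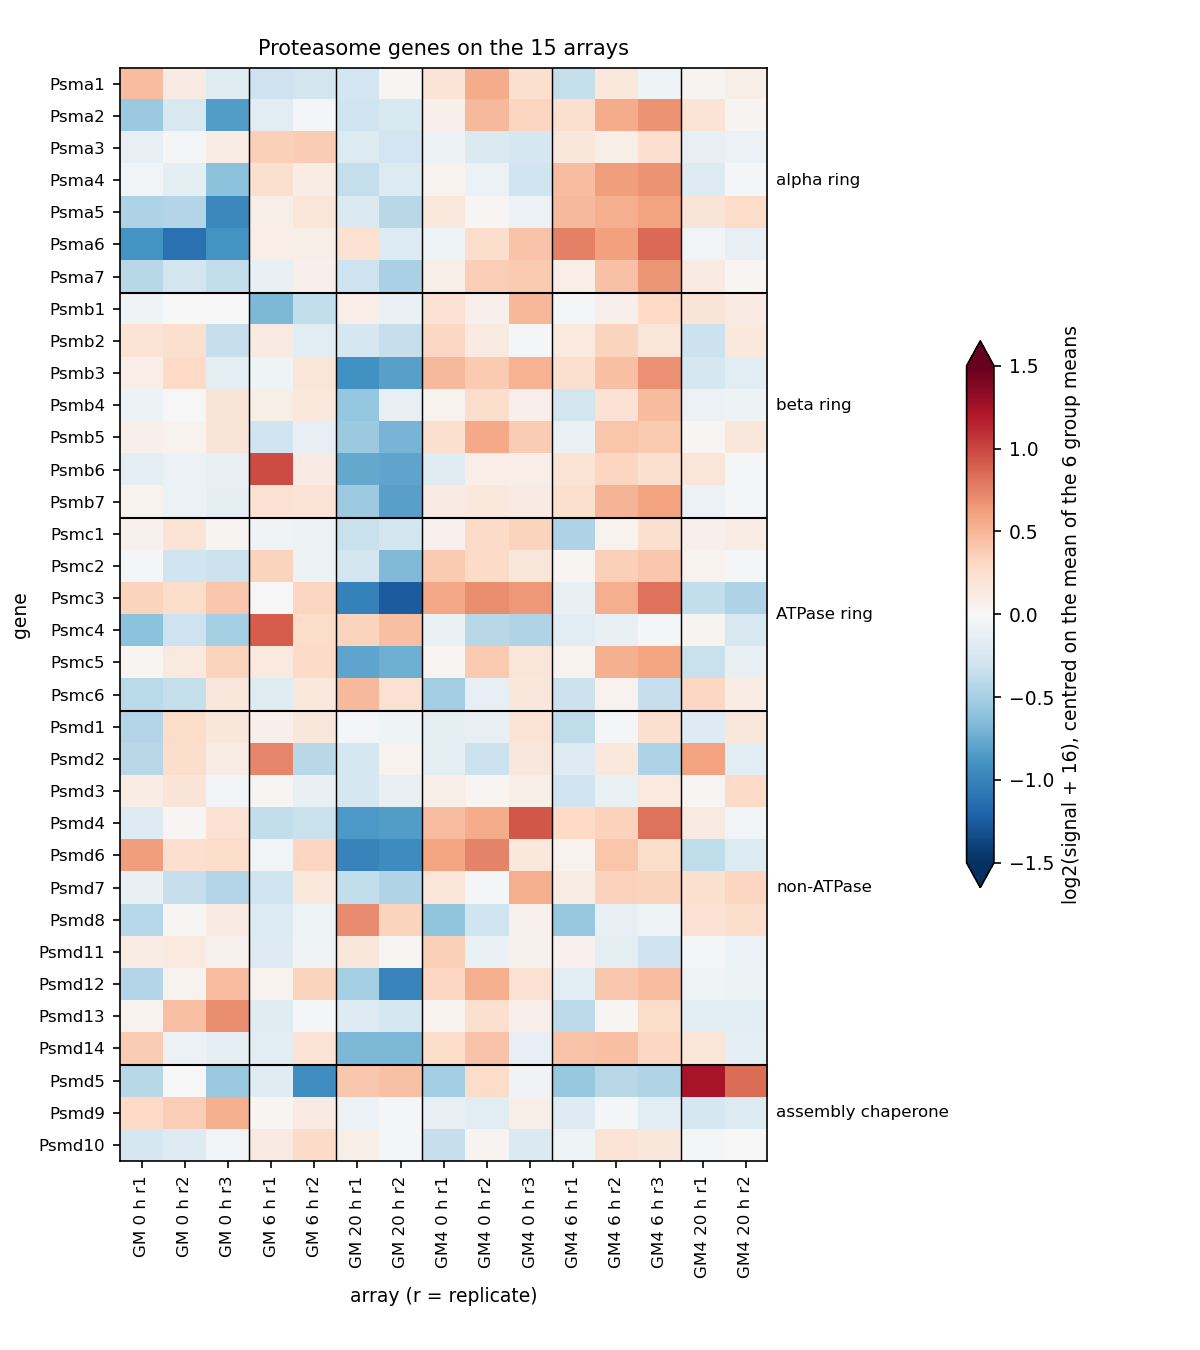
Heat map of the 34 genes (rows, grouped by class) on the 15 arrays (columns). Colour gives log2(signal + 16) after each gene was centred on the mean of its 6 group means; Psmb3, Psmb5, Psmb6 and Psmb7 were at their lowest on the 2 GM 20 h arrays, and Psma6 was lowest on the 3 GM 0 h arrays.

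GM4 DC and GM DC, which differ in IL-4 and in the gradient used, were compared at each time, and the effects of IL-4 and gradient cannot be told apart. Before stimulation GM4 DC had higher signals than GM DC for 7 of the 34 genes and a lower signal for 1, where 6.86% of all probe sets were called higher and 7.12% lower. Among probe sets in the upper 60% by mean signal, where nearly all members lie, the background was 10.3% and 10.2%. The members' median difference was 0.15, against -0.06 over all 8251 genes. Of the 7 genes that were higher, 4 were in the alpha ring: Psma6, Psma2, Psma5 and Psma7. The others were the ATPase Psmc2 and the non-ATPase subunits Psmd4 and Psmd7, and the gene that was lower was the chaperone Psmd9. The 4 alpha ring calls were kept when any 1 array was left out. The total of 8 calls was 5 without replicate 2 or 3 of GM 0 h, and also without replicate 1 or 3 of GM4 0 h. The ratio of the signals from the 3′ and 5′ ends of a transcript is a measure of RNA quality. For Gapdh it was 1.18 to 2.46 in GM DC and 1.03 to 1.48 in GM4 DC over all times. For actin it was 1.43 to 2.26 and 1.13 to 1.44. At 0 h the actin ratio was 1.62 to 1.88 in GM DC and 1.24 to 1.44 in GM4 DC, with no overlap. With the 3′ to 5′ ratios as a covariate 3 calls were left, so not all of the 4 alpha ring calls were kept. The members' median difference was then 0.30. Of the 8 macrophage markers 6 were lower in GM4 DC. Of the 9 DC markers, which include Cd86, Cd83 and Ccr7, 4 were higher and 0 were lower, with a median difference of 0.62. The part of these markers was not tested.

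At 6 h 3 genes were higher in GM4 DC (background 6.39%) and 1 was lower (4.74%; 9.96% and 6.48% among the brighter probe sets), and the median difference was 0.12 against -0.02 over all genes. The higher genes were Psmd4, Psma6 and Psmb1, and the lower one was the dim Psmc4. The shares are close to those of the array as a whole. None of the 4 calls was kept in every fit that left out 1 array: without GM 6 h replicate 1 there were 0 calls, without GM4 6 h replicate 3 there was 1, and without GM4 6 h replicate 1 there were 7. All 8 macrophage markers were lower in GM4 DC at this time, and of the 9 DC markers 2 were higher and 0 lower. The part of these markers in the results was not tested.

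At 20 h 5 genes were higher in GM4 DC and 0 were lower (background 3.14% and 1.56%, and 5.07% and 2.25% among the brighter probe sets). At an unadjusted p under 0.05 there were 15 and 1, but the share of all probe sets at that cut was not computed. The members' median difference was 0.36, against -0.04 over all genes, and 27 of the 34 differences were positive. Of the 5, 4 were in the beta ring: Psmb6, Psmb5, Psmb3 and Psmb7. The last was Psmd4. No alpha ring gene was called, although 4 had been at 0 h. Both groups had 2 arrays, and the calls rest on all of them: with GM 20 h replicate 1 left out 1 gene was called, and with GM 20 h replicate 2 or either GM4 20 h array left out, none. With the RNA quality covariate 1 was left, whereas array weights gave 8. The macrophage markers summed to 15124 to 16156 in GM DC and 8694 to 8929 in GM4 DC at this time. Of the 9 DC markers 2 were higher in GM4 DC and 0 lower. The part of these markers was not tested.

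The response to LPS and IFN-γ was compared within each DC type. From 0 to 6 h in GM DC 5 genes rose and 1 fell (background 8.52% and 15.7%; 11.6% and 24.0% among the brighter probe sets), and the median change was 0.07 against -0.05 over all genes. In GM4 DC 4 genes rose and 0 fell (5.84% and 10.0%, and 8.76% and 14.9% among the brighter ones). The median was -0.02 in both the members and all genes. At an unadjusted p under 0.05 there were 5 and 1, but the share of all probe sets at that cut was not computed. The shares that rose, 14.7% of the members in GM DC and 11.8% in GM4 DC, were close to those of the brighter probe sets. The genes that rose in GM4 DC were all in the alpha ring (Psma4, Psma6, Psma5 and Psma3). Of these calls only that of Psma4 was kept in every fit that left out 1 array. In GM DC 3 of the 5 were in the alpha ring (Psma6, Psma5 and Psma3), beside Psmb6 and Psmc4. The class medians were 0.44 in GM DC and 0.35 in GM4 DC for the alpha ring, and between -0.13 and 0.12 for the beta ring, ATPase ring and non-ATPase genes. Of the 6 proliferation markers 5 fell in GM DC by 6 h, and of the 8 macrophage markers 3 rose and 2 fell there, with sums of 17581 to 24589.8 at 6 h. In GM4 DC 0 proliferation markers were called, and 3 macrophage markers rose and 3 fell. Their part was not tested. Without GM 6 h replicate 1 there were 3 calls in GM DC. In GM4 DC there were 2 without replicate 1 or 3 of GM4 0 h or replicate 2 of GM4 6 h, and 1 without replicate 2 of GM4 0 h or replicate 3 of GM4 6 h.

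From 6 to 20 h in GM DC 10 genes fell and 2 rose, where 7.75% of all probe sets were called lower and 8.70% higher (11.7% and 13.2% of the brighter ones). The median change was -0.31, against 0.04 over all genes, and 28 of the 34 differences were negative. The genes that fell were spread over the rings: Psmb6, Psmb3 and Psmb7 of the beta ring, Psmc3, Psmc5 and Psmc2 of the ATPase ring, Psmd6, Psmd12 and Psmd14 of the non-ATPase genes and Psma3 of the alpha ring. In GM4 DC 6 genes fell and 1 rose (6.01% and 5.68%; 9.35% and 8.60%), and the median was -0.20 against 0.03. Psmb3, Psmb7, Psmc3 and Psmc5 fell in both DC types, Psma6 and Psma4 in GM4 DC. Psmd5 rose in both. Leaving out GM 20 h replicate 2 lowered the total of 12 in GM DC to 6. In GM4 DC the total of 7 was 4 without replicate 2 or 3 of GM4 6 h. It was 2 and 1 when replicate 1 and replicate 2 of GM4 20 h were left out.

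Over the whole 20 h 12 genes fell in GM DC and 4 rose (background 16.0% and 11%; 24.0% and 15.2% among the brighter probe sets), with a median of -0.26 against 0.00 over all genes. By class, 4 of 7 beta ring genes, 2 of 6 ATPases and 5 of 11 non-ATPase genes fell, and 0 of 7 alpha ring genes did. In GM4 DC 4 fell and 1 rose (12.3% and 8.71%; 18.2% and 12.5%), and the median was -0.17 against 0.02. The total in GM DC was 10 without GM 20 h replicate 1 and 9 without GM 20 h replicate 2, and that in GM4 DC was 1 without GM4 20 h replicate 1. The actin 3′ to 5′ ratio was 2.15 and 2.26 on the GM 20 h arrays, above all other arrays (1.13 to 1.88). It entered the RNA quality covariate averaged with the Gapdh ratio on the log2 scale, and its own part was not tested. Markers of other states moved over the same hours. All 6 measured proliferation markers fell in GM DC and 5 in GM4 DC, from sums of 2586 to 2938 and 1310 to 2232 at 0 h to 623 to 732 and 621 to 665 at 20 h. Of the 9 neutrophil markers 6 and 7 fell, to sums of 2077 to 2864 and 1721 to 1819. Their part in the result was not tested.

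**Figure D2:**
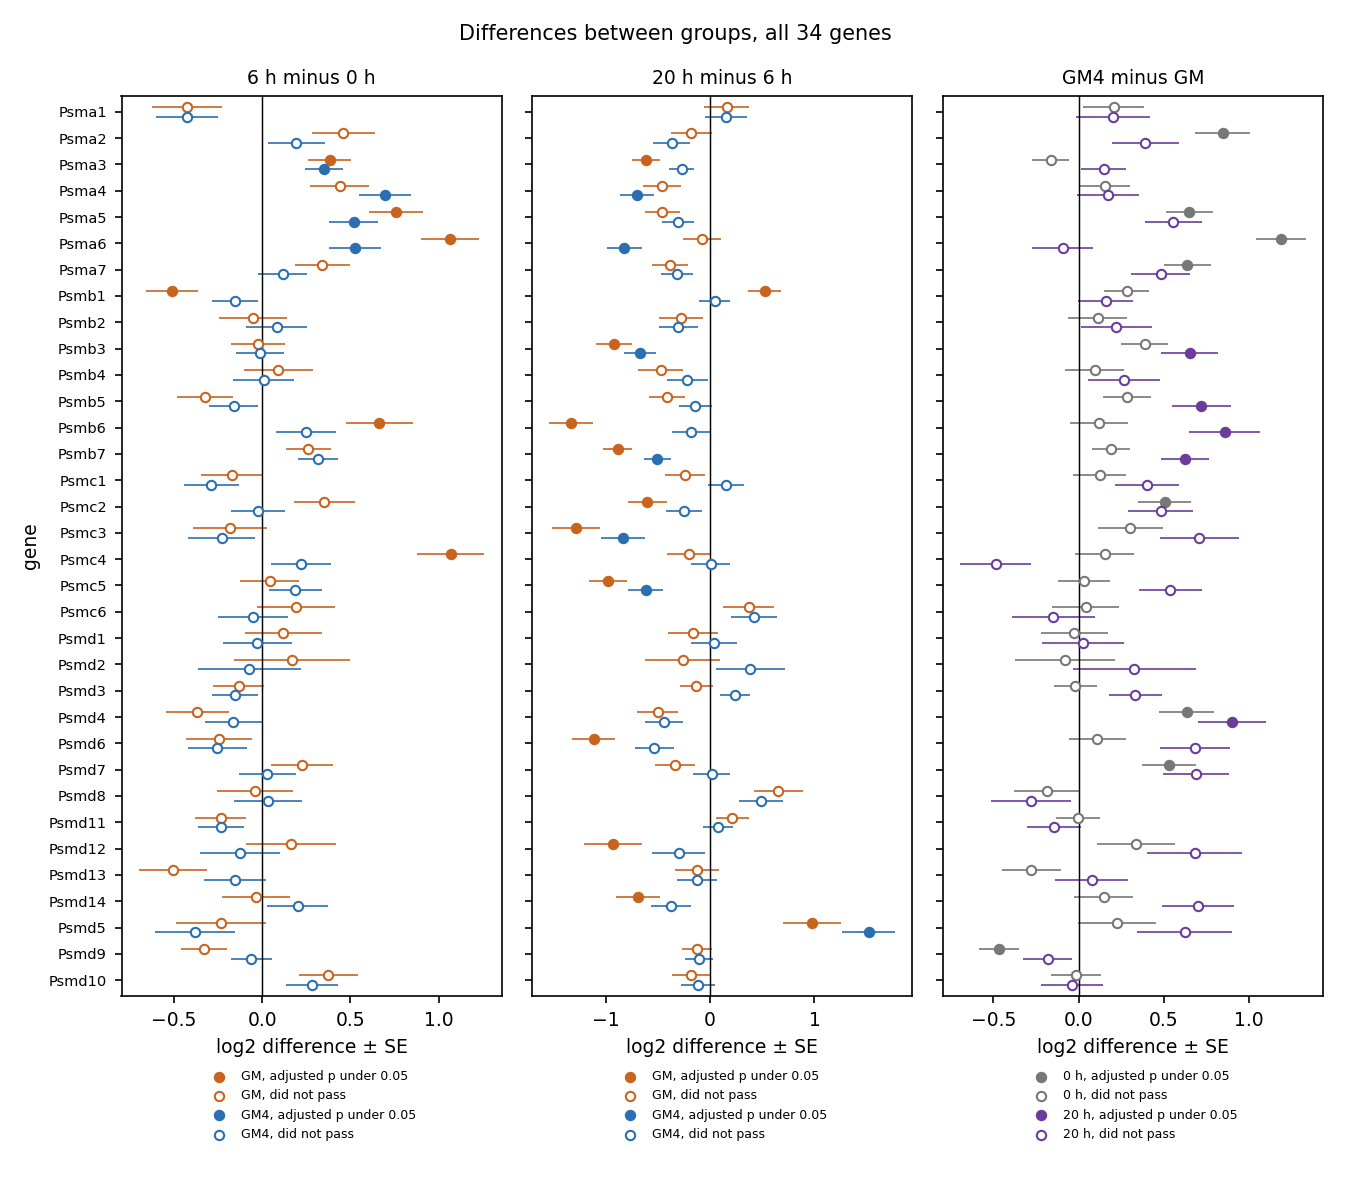
Log2 difference (horizontal axis, ± SE) of each of the 34 genes (vertical axis) for 6 h minus 0 h, 20 h minus 6 h and GM4 minus GM; filled points had an adjusted p under 0.05. The filled points of the early response lie mainly among the Psma genes, those of the late phase in GM DC are mostly below 0 and reach -1.33, and those of GM4 minus GM include 4 alpha ring genes at 0 h and 4 beta ring genes at 20 h.

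Whether the responses of the DC types differed was tested directly. For the change from 0 to 6 h no gene was called in either direction by limma (0 higher and 0 lower, background 0.443% and 0.515%), and at an unadjusted p under 0.05 there were 0 and 2. The share of all probe sets at that unadjusted cut was not computed for any of these tests. For the change from 0 to 20 h 1 gene was called, Psma6, which was lower (0.708% of all probe sets; 0.555% were higher), and the unadjusted counts were 3 and 2. For the change from 6 to 20 h, a test added after the data were seen, there were again 0 and 0 calls (0.427% and 0.242%), with 1 and 2 unadjusted. The median of that difference was 0.23 against -0.01 over all genes. Psmb6 had the largest value, 1.15 ± 0.28 with an adjusted p of 0.0992. That value draws on the GM 6 h arrays, which read 1025 and 557 for this gene. That more genes fell in GM DC than in GM4 DC is therefore a statement about counts. The tests of single genes did not separate the late declines of the DC types.

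Promoters were read for motifs that members might share. RefSeq sequences (build GRCm38.p6) of 300 bases, 250 before and 50 from the start site on, were found for 28 of the 34 members. The 5 shown belong to genes whose courses are described next, chosen after their values were seen. Capitals mark CCGGAA (a core that ETS factors bind), CCAAT, and TGACNNNGC (the core of the antioxidant response element that Nfe2l1 and Nfe2l2 bind), on either strand. For Psma6, which had the largest difference between the DC types at 0 h, the window at chr12:55398575-55398874 on the plus strand is shown, and RefSeq lists a second start for this gene. Psmb5 (chr14:54617946-54618245, minus strand) and Psmb6 (chr11:70525107-70525406, plus strand) are catalytic subunits that fell in GM DC. Psmd6 (chr14:14120896-14121195, minus strand) fell in both DC types and Psmd5 (chr2:34870913-34871212, minus strand) rose in both.
Psma6: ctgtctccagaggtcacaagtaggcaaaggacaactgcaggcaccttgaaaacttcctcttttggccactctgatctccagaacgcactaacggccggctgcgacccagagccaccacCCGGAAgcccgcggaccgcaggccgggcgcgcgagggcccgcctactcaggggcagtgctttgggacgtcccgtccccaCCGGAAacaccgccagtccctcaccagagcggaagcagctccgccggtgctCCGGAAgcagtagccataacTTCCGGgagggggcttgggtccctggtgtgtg
Psmb5: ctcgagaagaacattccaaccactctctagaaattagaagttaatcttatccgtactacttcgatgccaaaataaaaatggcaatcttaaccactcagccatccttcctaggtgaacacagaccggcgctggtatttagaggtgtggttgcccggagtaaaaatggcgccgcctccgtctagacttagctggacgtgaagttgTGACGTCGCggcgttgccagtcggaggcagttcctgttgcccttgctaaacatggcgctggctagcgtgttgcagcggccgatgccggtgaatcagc
Psmb6: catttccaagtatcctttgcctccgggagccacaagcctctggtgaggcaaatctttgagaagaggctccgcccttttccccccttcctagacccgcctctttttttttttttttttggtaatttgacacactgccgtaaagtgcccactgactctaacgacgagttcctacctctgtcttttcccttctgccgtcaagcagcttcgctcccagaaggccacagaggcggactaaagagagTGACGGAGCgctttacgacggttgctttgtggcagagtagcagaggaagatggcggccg
Psmd6: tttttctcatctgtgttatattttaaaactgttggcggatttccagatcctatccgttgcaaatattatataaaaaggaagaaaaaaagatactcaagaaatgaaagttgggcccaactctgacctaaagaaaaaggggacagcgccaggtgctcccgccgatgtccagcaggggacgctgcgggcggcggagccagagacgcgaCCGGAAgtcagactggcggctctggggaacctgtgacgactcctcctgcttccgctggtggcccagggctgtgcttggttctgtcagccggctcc
Psmd5: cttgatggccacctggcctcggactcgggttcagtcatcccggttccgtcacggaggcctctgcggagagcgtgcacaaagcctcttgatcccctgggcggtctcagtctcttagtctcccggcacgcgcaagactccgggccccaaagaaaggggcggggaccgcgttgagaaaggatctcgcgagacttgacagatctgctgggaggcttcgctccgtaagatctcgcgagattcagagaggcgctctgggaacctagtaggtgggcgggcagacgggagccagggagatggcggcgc

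In the Psma6 window shown, CCGGAA begins at -132, -53 and -2 from the start site, and its reverse complement at 19. The window at the other start of Psma6 holds no CCGGAA, and has CCAAT at -29 and its reverse complement at -136. In Psmd6 CCGGAA begins at -45. Psmb5 and Psmb6 hold TGACNNNGC at -47 and -9. Psmd5 holds none of the capitalised motifs, and GGGCGG, a GC box, begins at -155, -97 and 16. Over the 28 members CCGGAA was found in 15 (53.6%), against 14.9% of all 32851 promoters and 22.9% of the 8412 promoters of genes on the array. It was in 10 of 14 regulatory genes and 4 of 11 core genes. TGACNNNGC was in 5 members (17.9%, against 12.4% and 14.1%), CCAAT in 11 (39.3%, against 37.4% and 37.0%) and GGGCGG in 18 (64.3%, against 35.7% and 57.0%). Motifs known from interferon and cytokine signalling were searched too: TTCNNNGAA, a gamma-activated site, was in 1 member (3.57%, against 8.30% and 7.03%), and the core of interferon response elements, a GAAA pair with NN between, in 3 (10.7%, against 3.44% and 3.13%). The same site with 1 more N, the spacing that STAT6 prefers, was in 0 of the 28, against 6.95% and 5.55%. A member counted when any of its promoters matched (30 sequences for the 28 genes), whereas the backgrounds are shares of single promoters, which favours the members slightly. Motifs were searched on both strands, GC content was not matched, and a match is a description of the letters in the window.

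The alpha ring held 4 of the 8 members called between the DC types before stimulation, and Psma1, Psma3 and Psma4 were not called. Psma6 had a signal of 980.0, 838 and 978 on the GM 0 h arrays and of 1762, 2215 and 2481 on the GM4 0 h arrays. The groups did not overlap, and the difference was 1.18 ± 0.15, a 2.27-fold higher signal (adjusted p = 0.000116). At 6 h the values were 1971 and 1948 in GM DC and 3102, 2831 and 3313 in GM4 DC. The gene had thus risen in both, by 1.06 ± 0.16 in GM DC (adjusted p = 0.00028) and by 0.53 ± 0.15 in GM4 DC (adjusted p = 0.0249). GM4 DC remained higher by 0.65 ± 0.16 (adjusted p = 0.0208). At 20 h the arrays read 2149 and 1598 in GM DC and 1787 and 1683 in GM4 DC, so the groups overlapped.

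From 6 to 20 h Psma6 fell by 0.82 on the log2 scale in GM4 DC (SE 0.16, adjusted p = 0.00467), and in GM DC its difference was -0.08. The fall was not called without GM4 20 h replicate 2 (-0.78, adjusted p = 0.0657). Over 20 h it rose by 0.98 ± 0.16 in GM DC (adjusted p = 0.000384), and the change in GM4 DC was -0.30. The 20 h responses differed by -1.28 ± 0.23 (adjusted p = 0.0200), the sole member for which such a test passed. The call was lost without GM 0 h replicate 2 (-1.21, adjusted p = 0.0516), GM 20 h replicate 1 (-1.07), or replicate 1 (-1.32) or 2 (-1.24) of GM4 20 h, and the difference ranged from -1.49 to -1.07. The differences at 0 h and from 0 to 6 h in GM DC passed in every fit that left out an array. Those at 6 h and from 0 to 6 h in GM4 DC did not, and without GM4 0 h replicate 1 the latter was 0.39.

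Psma2 read 706, 884 and 578 in GM DC and 1109.6, 1472 and 1319.6 in GM4 DC at 0 h, a difference of 0.84 ± 0.16 (adjusted p = 0.0029). Psma5 read 354, 360.4 and 245 against 551, 500.3 and 462, which is 0.65 ± 0.14 higher in GM4 DC (adjusted p = 0.00574). Psma7 read 531, 590.5 and 553 against 763, 929 and 946, which is 0.64 ± 0.14 higher (adjusted p = 0.00729). For each of the 3 genes every GM4 array was above every GM array. With the RNA quality covariate not all alpha ring calls at 0 h, those of Psma6 and these genes, were kept. At 20 h their differences had the same sign (0.39, 0.56 and 0.48) and none passed.

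Within 6 h of stimulation Psma5 reached 527 and 562 in GM DC and 696, 729 and 759 in GM4 DC. It rose by 0.76 ± 0.15 in the first (adjusted p = 0.0021) and by 0.52 ± 0.14 in the second (adjusted p = 0.0185). Psma4 read 623, 563 and 484 in GM4 DC at 0 h, then 832, 931 and 961 at 6 h, then 519.5 and 585 at 20 h. It rose by 0.70 ± 0.15 (adjusted p = 0.00511) and fell again by 0.70 (SE 0.17, adjusted p = 0.0134). The fall was not called without replicate 1 (-0.62) or 2 (-0.78) of GM4 20 h, and the rise of Psma5 in GM4 DC was not called without replicate 2 (0.51) or 3 (0.46) of GM4 0 h or replicate 2 (0.52) or 3 (0.49) of GM4 6 h. In GM DC Psma4 read 583, 545 and 384, then 710.3 and 649, then 461 and 516, and no step passed the test. Psma3 rose by 0.38 in GM DC and 0.35 in GM4 DC. These rises were called in 11 and 4 of the 15 fits that left out 1 array. The rise of Psma3 in GM DC was 0.07 under quantile normalization. Its probe set, like those that stood for Psmb4, Psmb5, Psmb7, Psmc3, Psmd9 and Psmd12, is of a type that can share sequence with other genes or departs from the standard probe design. Psma1 was the exception of the ring: its difference from 0 to 6 h was -0.43 in GM DC and -0.42 in GM4 DC, and neither passed.

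**Figure D3:**
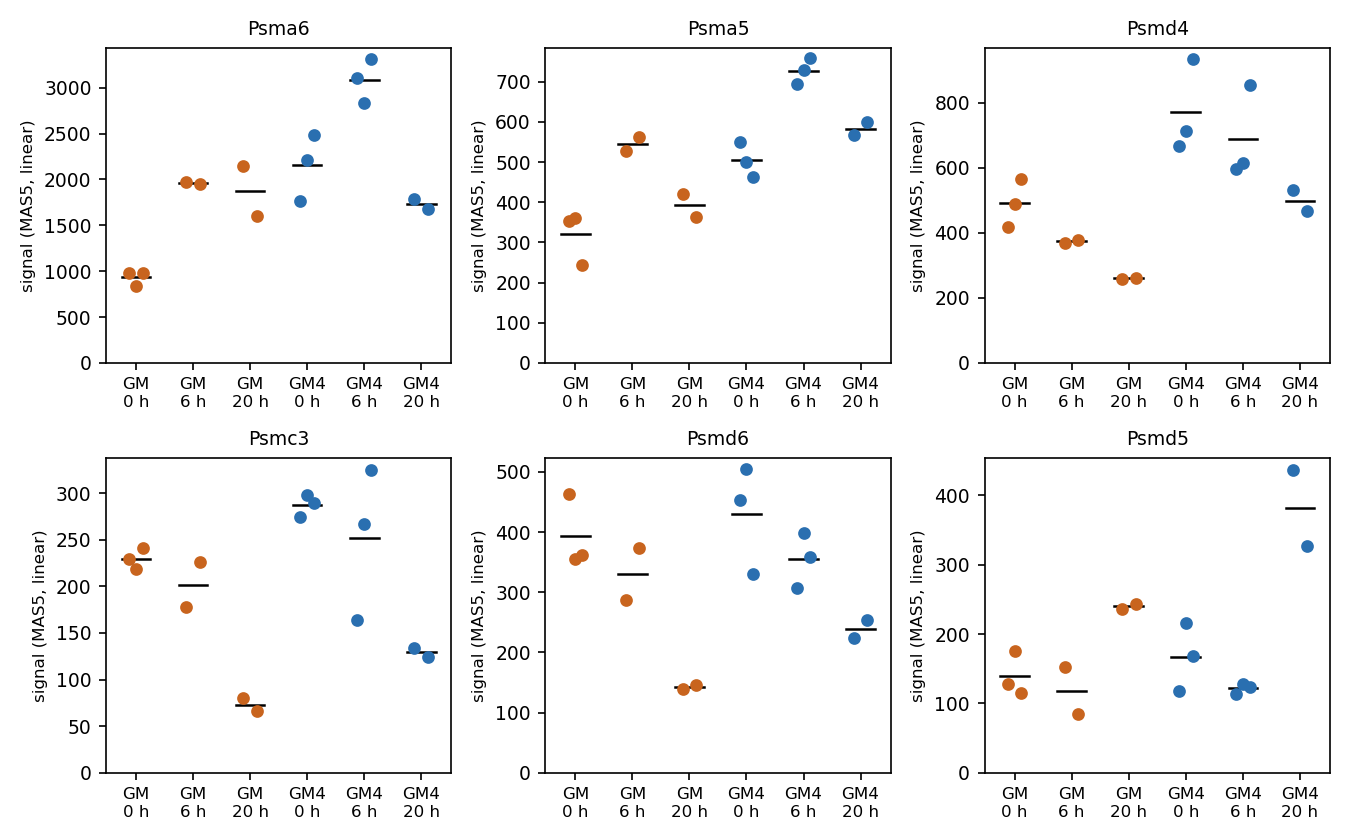
Signal (vertical axis, linear from 0) of 6 genes in each group (horizontal axis); points are arrays, orange for GM DC and blue for GM4 DC, and bars are group means. Psma6 and Psma5 were lowest in GM DC at 0 h, Psmc3, Psmd6 and Psmd4 were lowest in GM DC at 20 h, and Psmd5 was highest in GM4 DC at 20 h.

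No beta ring gene was called between the DC types at 0 h, and from 6 to 20 h 3 of 7 fell and 1 rose in GM DC and 2 fell in GM4 DC. Psmb5, which carries the chymotrypsin-like site, read 576, 567 and 627 in GM DC at 0 h, then 439 and 497 at 6 h, then 366 and 330.3 at 20 h. It fell by 0.74 over 20 h (SE 0.16, adjusted p = 0.00266). In GM4 DC it read 648, 813 and 714, then 506, 729 and 721, then 552 and 615, and the 20 h difference of -0.30 did not pass. At 20 h GM4 DC were 1.65-fold higher (0.72 ± 0.17, adjusted p = 0.0291). A second probe set of Psmb5, with a lower signal (36.4 to 106), was not called. Between the DC types it differed by -0.64 at 0 h and by -0.44, the other way, at 20 h. Over 20 h in GM DC its difference was 0.04 (limma adjusted p = 0.939), so it did not show the fall. With the mean of both probe sets the difference between the DC types at 20 h was 0.14.

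Psmb6, the caspase-like subunit, read 464, 478 and 473 in GM DC at 0 h. At 6 h it read 1025 and 557, a spread that no other group of this gene had. At 20 h it read 294 and 288, and every GM DC array at 20 h was below every other array of the series. It fell by 1.33 on the log2 scale from 6 to 20 h (SE 0.21, adjusted p = 0.0006) and by 0.67 over 20 h (SE 0.19, adjusted p = 0.0168). Without GM 6 h replicate 1 the difference from 6 to 20 h was -0.90. The fall over 20 h was not called without GM 20 h replicate 1 (-0.68) or 2 (-0.66). The rise from 0 to 6 h, 0.66 ± 0.19, was 0.23 without GM 6 h replicate 1 and was then not called. In GM4 DC the values were 447, 549 and 550.3 at 0 h, then 590.3, 643 and 605 at 6 h, then 581 and 501 at 20 h, with no call. GM4 DC were 0.86 ± 0.21 higher at 20 h (adjusted p = 0.0313).

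Psmb7, the trypsin-like subunit, read 436, 397 and 383 in GM DC at 0 h, then 490.1 and 486 at 6 h, then 283 and 233 at 20 h. It fell by 0.89 from 6 to 20 h (SE 0.14, adjusted p = 0.000633). In GM4 DC it read 459.5, 471 and 461, then 500.2, 607 and 646, then 395 and 415, a late fall of 0.50 (SE 0.13, adjusted p = 0.0193). That fall was not called without replicate 2 (-0.47) or 3 (-0.43) of GM4 6 h. The same held for replicate 1 (-0.47) and 2 (-0.54) of GM4 20 h. At 20 h Psmb7 was 0.62 ± 0.14 higher in GM4 DC (adjusted p = 0.0203). Psmb3 is a structural subunit. It went from 479, 551 and 401 at 0 h to 231 and 246 at 20 h in GM DC, a fall of 0.94 (SE 0.15, adjusted p = 0.000313). In GM4 DC it went from 633, 592 and 648 to 369 and 397, a fall of 0.68 (SE 0.15, adjusted p = 0.00561), and at 20 h it was 0.65 ± 0.17 higher there (adjusted p = 0.0415).

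Over the fits that left out 1 array, the difference of these 4 genes at 20 h ranged from 0.49 to 0.96. It was not called without GM 20 h replicate 2 or either GM4 20 h array for any of them, nor with the RNA quality covariate (0.59 to 0.94). Psmb1 differed with the probe set. The brightest read 414 and 518 in GM DC at 6 h, below all other arrays, and rose by 0.52 from 6 to 20 h. Another, with a signal of 368 to 1017, differed by -0.51 over the same hours, which did not pass, and fell by 0.80 over 20 h in GM DC and by 0.60 in GM4 DC. Psmb2 and Psmb4 were called in no comparison. Their ranges over all arrays were 295 to 485 and 895 to 1877.

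Inducible subunits were measured on the same arrays. Psmb9 read 706, 699.7 and 783 in GM DC at 0 h and 1993 and 2005 at 20 h, and 1362, 1451 and 1445 and then 2023 and 1786 in GM4 DC. It rose by 1.44 ± 0.13 in GM DC over 20 h (adjusted p = 2.46e-06) and by 0.42 ± 0.13 in GM4 DC (adjusted p = 0.0399). Psmb8 was 1.05 ± 0.12 higher in GM4 DC at 0 h (adjusted p = 7.36e-05), and its difference at 20 h was 0.15. Psmb10 rose by 0.62 ± 0.19 over 20 h in GM DC (adjusted p = 0.0223).

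The ratio of each inducible subunit to the one it replaces was followed as a change from its mean in GM DC at 0 h. The log2 ratio of Psmb9 to Psmb6 stood at 2.09 and 2.12 on the GM 20 h arrays and at 1.16 and 1.19 on the GM4 20 h arrays. Before stimulation it was already 0.76 to 0.96 in GM4 DC. For Psmb8 to Psmb5, taken with the brighter of the Psmb5 probe sets, the 20 h values were 1.47 and 1.46 in GM DC and 1.06 and 0.72 in GM4 DC. For Psmb10 to Psmb7 they were 1.08 and 1.41 against 0.69 and 0.69. In all 3 pairs both GM arrays were above both GM4 arrays at 20 h. These values describe unequal change within an array, with no test, and with 2 arrays a group.

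**Figure D4:**
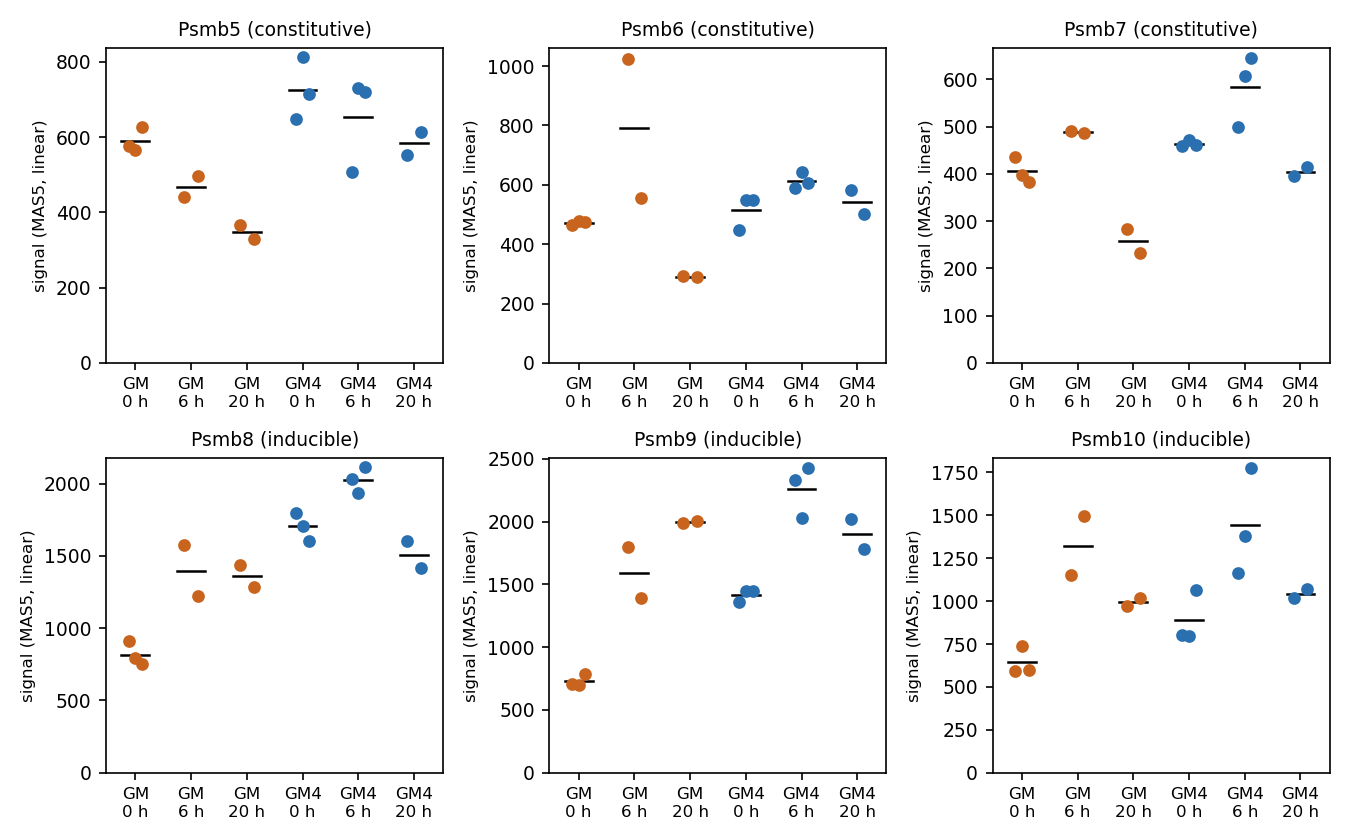
Signal (vertical axis, linear from 0) of the constitutive catalytic subunits Psmb5, Psmb6 and Psmb7 (top) and of the inducible subunits Psmb8, Psmb9 and Psmb10 (bottom) in each group (horizontal axis). Points are arrays and bars are group means; at 20 h in GM DC the top row is at its lowest (Psmb6 294 and 288) while Psmb9 reads 1993 and 2005.

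Among the ATPases, Psmc3 fell furthest. It read 229.7, 219 and 241 in GM DC at 0 h, then 177 and 226 at 6 h, then 80.5 and 66.0 at 20 h. In GM4 DC it read 274, 299 and 289, then 164, 267 and 325, then 134 and 125. In both DC types the 20 h arrays were below all earlier ones. The fall over 20 h was 2.76-fold in GM DC (log2 difference -1.47 ± 0.21, adjusted p = 0.000111) and 2.09-fold in GM4 DC (-1.06 ± 0.21, adjusted p = 0.00245). Both calls were kept in every fit that left out an array. The other 2 probe sets of Psmc3 also fell in GM DC, by 1.37 and 1.10. In GM4 DC 1 of them fell, by 0.95, and the other differed by -0.46 and was not called.

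Psmc5 read 308, 335 and 382 in GM DC at 0 h, then 334 and 368 at 6 h, then 167 and 174 at 20 h. It fell by 0.98 from 6 to 20 h (SE 0.18, adjusted p = 0.00225). In GM4 DC it went from 312, 440.4 and 459.8 at 6 h to 235 and 275 at 20 h, a fall of 0.62 (SE 0.17, adjusted p = 0.0287) that was not called without either GM4 20 h array, at -0.51 and -0.73, or without replicate 2 or 3 of GM4 6 h. Psmc4 went the other way at a very low signal, from 3.33, 7.81 and 4.97 at 0 h in GM DC to 39.5 and 19.9 at 6 h and 21.3 and 24.2 at 20 h. It rose from 0 to 6 h (adjusted p = 0.000857), but all GM 0 h values are under 16, and the size depends on the offset: 1.07 with the offset of 16, 2.25 with 1 and 0.43 with 64. Its lower level in GM4 DC at 6 h was not called with an offset of 1 (adjusted p = 0.115). Psmc1 and Psmc6 were called in no comparison.

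Psmd4, a receptor for ubiquitin chains, was the sole member called higher in GM4 DC at all 3 times. At 0 h it read 417, 487 and 567 in GM DC and 667, 713 and 935 in GM4 DC. At 6 h it read 369.5 and 379 against 597, 616 and 855, and at 20 h 257 and 262 against 531 and 466. The groups did not overlap at any time. The differences were 0.63 ± 0.16 (adjusted p = 0.0177), 0.84 ± 0.18 (adjusted p = 0.00849) and 0.90 ± 0.20 (adjusted p = 0.0181). Over the fits that left out 1 array they ranged from 0.49 to 0.74, 0.67 to 0.93 and 0.81 to 0.99. Single arrays ended the calls. At 0 h these were replicate 1 (0.53) or 2 (0.63) of GM 0 h and replicate 3 (0.49) of GM4 0 h, at 6 h GM 6 h replicate 1 (0.82), and at 20 h any of the 4 arrays. Over 20 h the gene fell by 0.87 in GM DC (SE 0.18, adjusted p = 0.00214) and by 0.60 in GM4 DC (SE 0.18, adjusted p = 0.0287).

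Psmd6, a subunit of the lid of the regulatory particle, read 464, 356 and 362 in GM DC at 0 h, then 286 and 374 at 6 h, then 139 and 146 at 20 h. It fell 2.57-fold over 20 h (log2 difference -1.36 ± 0.19, adjusted p = 7.19e-05), next to Psmc3 in size among the members over 20 h. In GM4 DC it went from 453, 506 and 330.4 to 224 and 253, a fall of 0.79 (SE 0.19, adjusted p = 0.00765) that was -0.70 and not called without GM4 20 h replicate 1. Psmd12, another lid subunit, went from 156 and 193 at 6 h to 102 and 67.7 at 20 h in GM DC. That fall of 0.93 (SE 0.28, adjusted p = 0.0345) was -0.68 without GM 20 h replicate 2, -1.07 without GM 6 h replicate 1 and -0.79 without GM 6 h replicate 2, and was then not called. The further non-ATPase genes that fell in GM DC over 20 h did so by 0.63 to 0.87. Psmd8 was the class's exception, with 394, 542 and 586 at 0 h and 885 and 677 at 20 h, a rise of 0.61 ± 0.22 (adjusted p = 0.0487) that was not called in 11 of the 15 fits that left out an array. Psmd1, Psmd3, Psmd11 and the dim Psmd2 were called in no comparison with the probe set that stood for them. Another probe set of Psmd11 rose over 20 h by 0.52 in GM DC and 0.54 in GM4 DC.

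The 3 chaperones of proteasome assembly, which guide the ATPase ring together and are not part of the finished particle, differed among themselves: Psmd5 rose late, Psmd9 fell over 20 h in GM DC and Psmd10 was not called. Psmd5 read 117, 216 and 169 in GM4 DC at 0 h, then 113, 127 and 124 at 6 h, then 437 and 326 at 20 h. It rose 2.87-fold from 6 to 20 h (1.52 ± 0.25, adjusted p = 0.00135), the largest rise of any member, and this call was kept without any 1 array. In GM DC it read 128, 175 and 114, then 153 and 84.3, then 236 and 244. The late rise was 0.98 ± 0.28 there (adjusted p = 0.0269). It was 0.60 without GM 6 h replicate 2, and 1.00 and 0.96 without either GM 20 h array, and was then not called. The rises of the DC types differed by 0.54 ± 0.38, which did not pass. Psmd9 was lower in GM4 DC at 0 h, with 154, 150.4 and 181 against 213, 224 and 253. That difference of -0.47 ± 0.12 (adjusted p = 0.0158) was -0.40 without GM 0 h replicate 3, and -0.44 and -0.42 without replicate 1 and replicate 2 of GM4 0 h, and was then not called. Over 20 h in GM DC it fell by 0.46 (SE 0.13, adjusted p = 0.0174), to 159 and 167, and this was not called without replicate 3 of GM 0 h (-0.39) or replicate 1 (-0.42) or 2 (-0.49) of GM 20 h. Psmd10, also known as gankyrin, lay between 69.9 and 118 on all arrays and was called in no comparison.

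Core and regulatory particle were set side by side on each array as the median of centred log2 values over 14 core genes minus that over 17 regulatory genes. In GM4 DC at 6 h the difference was 0.35, 0.27 and 0.27, above all 12 other arrays. It was 0.02, -0.03 and 0.01 in the same cells at 0 h, with -0.06 and 0.08 at 20 h. In GM DC it was -0.03, -0.20 and -0.29 at 0 h, then 0.13 and -0.05 at 6 h, then -0.03 and -0.04 at 20 h. The pooled spread between replicates was 0.086 (SD). At 20 h all 4 arrays lay within that spread of 0. The median over all 34 genes was -0.28 and -0.27 on the GM 20 h arrays, the lowest of the series, and 0.02 and -0.03 on the GM4 20 h arrays.

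By ring, the alpha ring median in GM DC was -0.62 to -0.24 at 0 h, then 0.08 and 0.09 at 6 h, then -0.29 and -0.24 at 20 h. The beta ring median was between -0.11 and 0.05 at 0 h, then 0.09 and 0.12 at 6 h, then -0.55 and -0.69 at 20 h. In GM4 DC the same medians were 0.08 to 0.27 and 0.13 to 0.23 at 0 h, and 0.03 and 0.04 and -0.08 and -0.02 at 20 h. At 6 h they were 0.24, 0.55 and 0.66 for the alpha ring and 0.15, 0.34 and 0.39 for the beta ring. The regulatory particle medians of these 3 arrays were -0.16, 0.15 and 0.27. In GM DC the alpha ring arrays at 0 and 20 h overlapped, and the beta ring arrays at 20 h were below all others of the series. These medians are descriptions and were not tested.

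**Figure D5:**
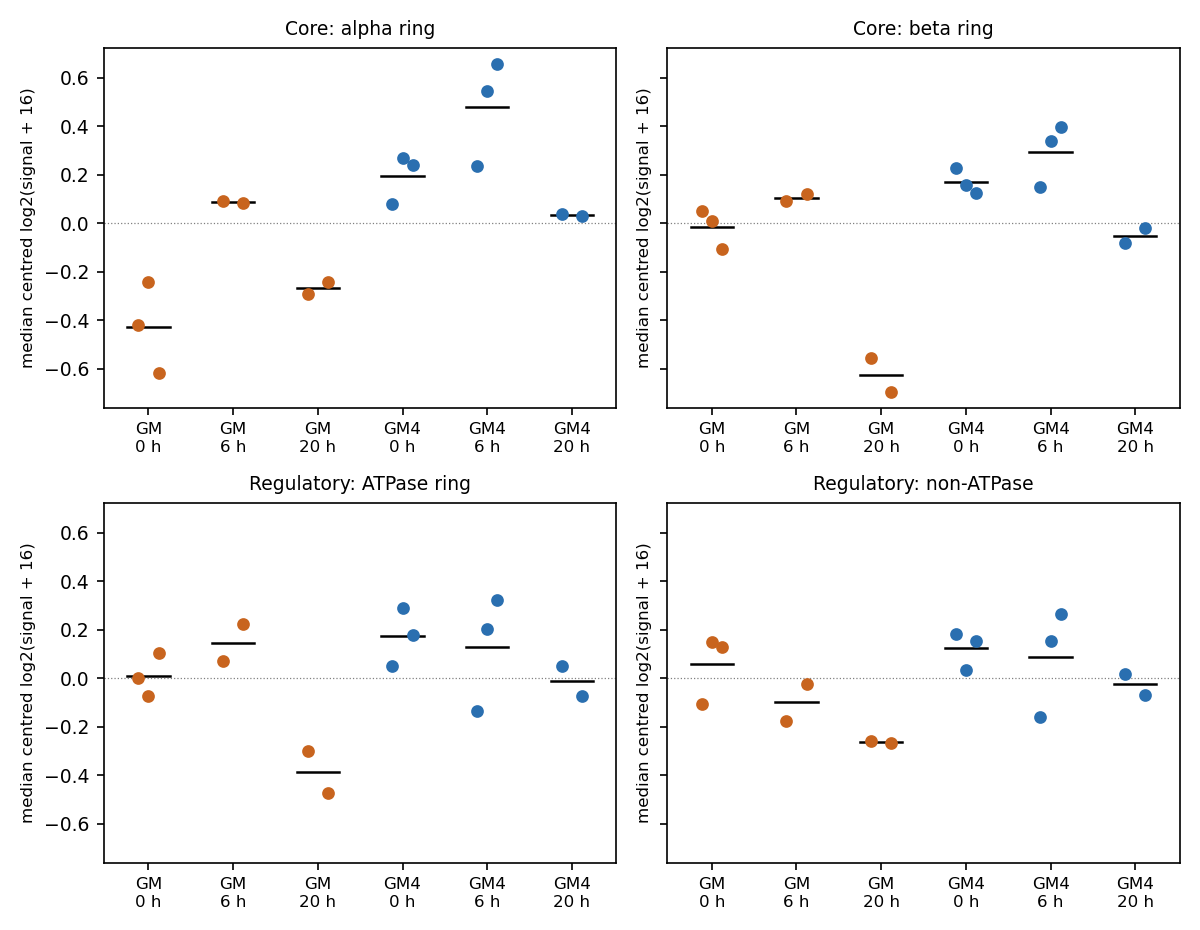
Median of the centred log2(signal + 16) values (vertical axis) over the genes of each class on every array, by group (horizontal axis), with bars at group means. The alpha ring medians of GM DC at 0 h (-0.62 to -0.24) and 20 h (-0.29 and -0.24) overlap and lie below all other arrays, and the beta ring is lowest in GM DC at 20 h (-0.55 and -0.69).

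Further genes of the pathway came from a list of inducible subunits, activators, core chaperones, ubiquitin receptors, shuttle factors and transcription factors, of which 20 were measured. Over 20 h in GM DC 7 rose and 9 fell, where 11% and 16.0% of all probe sets did. Those that rose were led by Psmb9, the activator subunit Psme1 (1.14 ± 0.15, adjusted p = 4.1e-05) and Pomp (1.05 ± 0.21, adjusted p = 0.00158), the chaperone that matures the beta ring. Pomp read 538, 652 and 889.8 at 0 h and 1424 and 1422 at 20 h. The 9 that fell were led by Psmg2 (adjusted p = 3.73e-05), a chaperone of alpha ring assembly, the deubiquitinase Uchl5 (-1.64 ± 0.29, adjusted p = 0.000618) and Psmg1 (-1.25 ± 0.39, adjusted p = 0.0274), the partner of Psmg2. Psmg2 went from 113, 126 and 106 to 15.4 and 9.39, both under a signal of 16. In GM4 DC 2 rose and 4 fell over 20 h (8.71% and 12.3% of all probe sets), and Psmg2 read 100.5, 113 and 115 at 0 h against 56.6 and 45.4 at 20 h.

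Between the DC types 4 of the 20 genes were higher in GM4 DC before stimulation, with 6 at 6 h and 2 at 20 h. The numbers that were lower were 0, 1 and 0. Over all probe sets 6.86%, 6.39% and 3.14% were higher and 7.12%, 4.74% and 1.56% lower. At 20 h the higher ones were Psmg2 (adjusted p = 0.0341; the GM 20 h values are under 16, so no size is given) and Usp14 (0.88 ± 0.21, adjusted p = 0.0298), a deubiquitinase that binds the regulatory particle. Usp14 read 82.3 and 56.3 in GM DC and 132 and 148 in GM4 DC. Of the transcription factors known to act on proteasome genes, Nfe2l1 rose over 20 h in GM DC (0.58 ± 0.18, adjusted p = 0.0252), and Nfe2l2 rose there by 0.76 ± 0.20 from 0 to 6 h and then fell by 1.51 (SE 0.22, adjusted p = 0.000394). At 0, 6 and 20 h Nfe2l2 read 1484, 895 and 984, then 2028 and 1719.8, then 695 and 602 in GM DC. In GM4 DC Nfe2l1 rose by 0.51 ± 0.16 from 0 to 6 h (adjusted p = 0.0421) and fell by 0.60 from 6 to 20 h (SE 0.18, adjusted p = 0.0422), and Nfe2l2 was not called. At 6 h Nfe2l1 was 0.69 higher and the difference of Nfe2l2 was -0.90 (GM4 minus GM), and both passed. The 20 h responses differed (GM4 minus GM) for Psme1 by -1.08 ± 0.21 (adjusted p = 0.0245), for Psmb9 by -1.02 ± 0.19 (adjusted p = 0.022) and for Psmb8 by -0.90 ± 0.19 (adjusted p = 0.0385), and for no other gene of the list (0.708% of all probe sets had a lower response in GM4 DC).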

How the data were processed

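Total RNA was labelled with biotin and hybridised to 15 Affymetrix mouse arrays. The authors deposited 1 intensity per probe set, on a linear scale, made with MAS5 per the submitters' processing notes. The sources used here give neither its version nor its settings. The 2% trimmed mean was 150.1 on every array, so arrays were already scaled. From these values log2(signal + 16) was fitted with limma 3.58.1 in R 4.3.3 as 6 group means over all 15 arrays (9 residual degrees of freedom, moderated with an intensity trend), leaving out 66 of 12488 probe sets as controls. p-values were adjusted by the Benjamini-Hochberg method over 12422 probe sets in each of 12 comparisons. Groups of 2 or 3 arrays limit the precision. Names came from the platform annotation: 10833 probe sets had 1 symbol, 396 several and 1193 none.

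Genes named were the catalytic subunits, the 5 largest calls each way in a comparison, members whose probe sets disagreed, and up to 4 genes of the related list. Others named as called in no comparison, and Psmd14, Psmc2, Psmd7, Psmd10 and Psma1, were added after their values were seen, to complete a class. The members and lists were chosen with earlier results of these data known. Labels and file values were compared, and no array pair was identical. The fits were tested on simulated data. Alternatives were the offset, the normalization, a filter, the trend, array weights, RNA quality as a covariate, a replicate block, fewer groups, the mean of a gene's probe sets, and leaving out each array. Figures were drawn with matplotlib 3.10.9.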

Additional observations from a re-analysis of the deposited data

Results flagged for a closer look

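The responses of the DC types to LPS and IFN-γ over 20 h differed by test for 1 member, Psma6, by -1.28 ± 0.23 on the log2 scale (GM4 minus GM, limma adjusted p = 0.0200). Its signal went from 838 to 980.0 up to 1598 to 2149 in GM DC, and from 1762 to 2481 down to 1683 to 1787 in GM4 DC. Of the 20 related genes, Psme1, Psmb9 and Psmb8 had a called difference of the same sign (-1.08, -1.02 and -0.90). The 20 h groups in this difference have 2 arrays each, and its cause was not tested. No group has 4 or more arrays, so no array could be tested as standing apart within its group.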

How the results depend on the processing

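Counts are of members called by limma. For GM4 minus GM at 0 h the count of 8 became 3 with the RNA quality covariate, 3 when only the groups compared were fitted and 5 without GM 0 h replicate 3 and GM 6 h replicate 1 together, a pair doubted after the data were seen. At 6 h the count of 4 became 2, 1 and 0 in the same order. At 20 h 5 became 1 with the covariate and 8 with array weights. With only the groups compared, 6 calls from 0 to 6 h in GM DC became 3 (3 also without the doubted pair), 12 from 6 to 20 h became 6, and in GM4 DC 4 became 2 and 7 became 4; these fits have fewer residual degrees of freedom. The cause of the other shifts was not tested.

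Leaving out each array in turn gave 5 to 8, 0 to 7 and 0 to 6 calls for GM4 minus GM at 0, 6 and 20 h. It gave 3 to 7, 6 to 14 and 9 to 16 for 6 h minus 0 h, 20 h minus 6 h and 20 h minus 0 h in GM DC, and 1 to 4, 1 to 8 and 1 to 6 in GM4 DC. For the differences of responses it gave 0 to 2 at 6 h (2 without GM 6 h replicate 2), 0 to 1 at 20 h and 0 to 1 from 6 to 20 h.

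The members' median moved to 0.30 with the covariate at 0 h, to 0.19 and -0.14 with median centring in GM DC at 6 h and 20 h against 0 h, to 0.089 with array weights in GM4 DC at 6 h against 0 h, and to 0.13 for the added difference with the mean of all probe sets. Median centring moved the median of all probe sets by up to 0.13. Over the fits that left out 1 array the medians were 0.10 to 0.20, 0.065 to 0.25 and 0.32 to 0.42 for GM4 minus GM at 0, 6 and 20 h, -0.02 to 0.14, -0.37 to -0.30 and -0.30 to -0.17 in GM DC in the order above, -0.061 to 0.10, -0.31 to -0.15 and -0.17 to -0.15 in GM4 DC, and -0.12 to 0.087, 0.18 to 0.28 and 0.11 to 0.31 for the differences of responses. Core minus regulatory in GM DC at 20 h was 0.077 with probe sets under the 40th percentile left out. Psmb1 from 6 to 20 h in GM DC turned to -0.044 with the mean of its probe sets. Psmb5 at 20 h was 0.14 under that setting, and Psmc5 from 6 to 20 h in GM DC -0.50.

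Same-numbered arrays tended to deviate alike: the correlation of their deviations was 0.0026 to 0.332, with a mean of 0.119. Between arrays of other numbers the mean was -0.065. Of 33 same-numbered pairs 17 were over 0.1, and 14 of 15 arrays correlated best with their own number. The main fits left the number out, and the replicate block was an alternative. With the replicate block Psmd5 over 20 h in GM DC was 0.72 (adjusted p = 0.0710), and no count of members moved by over 1.5 times. Groups of 2 or 3 arrays, and the low signal of Psmc4 and Psmd2, limit what these data can show.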
